A study of Rattus norvegicus with 12 samples.

Results

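The lesioned striatum of rats given L-DOPA plus zonisamide was compared with the non-lesioned striatum of saline-treated rats, on 3 arrays against 3, which are 6 of the 12 arrays of the study. The arrays were chosen by their labels alone, with no measured value. The study used male Wistar rats in which 6-OHDA, a toxin of catecholamine neurons, had been injected on the left side into the medial forebrain bundle, through which dopamine axons reach the striatum. All rats of all groups carried this lesion and had been kept because they made at least 7 turns per min after 3 mg/kg methamphetamine. The L-DOPA plus zonisamide rats received 100 mg/kg L-DOPA, given after the peripheral decarboxylase inhibitor benserazide, and 50 mg/kg zonisamide 30 min later, once a day for 7 days. The non-lesioned group is the opposite hemisphere of lesioned, saline-treated rats, so it is neither an unlesioned animal nor a drug-treated intact side, and the side and the drugs differ together in the comparison. The study assigned 3 animals to each group, and whether a saline rat gave both of its hemispheres is not stated. The time between the last injection and the taking of tissue is not given in the sources used here. The remaining 2 groups, the lesioned striatum after saline and after L-DOPA without zonisamide, are used only where they show where the combined treatment differs. The question was how near the combined treatment comes to the intact side.

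The striatum is built mostly from GABAergic spiny projection neurons of 2 kinds. Direct-pathway neurons carry the D1 dopamine receptor with the peptides dynorphin and substance P, and indirect-pathway neurons carry the D2 receptor and an adenosine receptor with enkephalin. Loss of dopamine is known to lower the peptides of the direct pathway and to raise enkephalin, and L-DOPA acting on the D1 receptor is known to drive activity-dependent transcription. Zonisamide, which is given for epilepsy and for Parkinson's disease, blocks voltage-gated sodium and T-type calcium channels and inhibits carbonic anhydrases. Levels below are log2 array signals relative to the array's 75th percentile, so a level can be negative and is compared only within a gene. Changes are differences of mean log2 level with their standard error (SE) on 3 arrays per group.

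Markers of the labelled tissue were high on all 12 arrays. Ppp1r1b, the gene of the dopamine-regulated phosphatase inhibitor DARPP-32, had levels of 5.80, 5.42 and 4.85 on the non-lesioned arrays and 4.94, 5.64 and 5.46 after L-DOPA plus zonisamide. The arrays' 75th percentile intensities ran from 784 to 1713, and 67.7% to 74.0% of the probes stood well above background. The 6 arrays correlated with each other at 0.950 to 0.974 across probes. Choroid plexus transcripts, a sign of ventricular tissue in the dissection, differed between arrays of one group. Ttr, the plexus carrier transthyretin, had levels of 2.34, 3.07 and 6.74 on the non-lesioned arrays and 4.30, 2.74 and 6.68 with the combined treatment. The mean level of the 11 tested members of the 16 listed choroid plexus genes was -3.24, -3.17 and 1.75 and -2.54, -3.39 and -0.13, so the third array of each group stood apart from its fellows.

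No gene passed the test between the L-DOPA plus zonisamide striatum and the non-lesioned striatum. Of 18651 features tested, 0 (0%) passed an adjusted p of 0.05 in limma, and the lowest adjusted p was 0.735. Without the third non-lesioned array 10 features passed, without the third array of both groups 6, and with slide as a fixed block 4, all of them higher. In each of those 10, the first 2 non-lesioned arrays lay below all the other arrays of the study. Features at an unadjusted p under 0.05 numbered 793 (4.25%), with 387 (2.07%) higher and 406 (2.18%) lower. The 3 arrays of one group lay wholly above or below those of the other in 1338 features (7.17%), with 582 (3.12%) higher and 756 (4.05%) lower after the combined treatment. The change was above 0 in 50.3% of the features and beyond 1 log2 unit in 600 (3.22%). The median change was 0.00 and the median size of change 0.18, against a median SE of 0.26. The 95% interval of the change stayed within 1 log2 unit of 0, a doubling or halving, in 12015 features (64.4%). For the other features a change of that size was not bounded at this number of arrays, so the absence of passing genes does not show that the groups were alike.

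The other lesioned groups were tested against the same 3 non-lesioned arrays in the same fit, so their values share those arrays with this comparison. In the saline-treated lesioned striatum 0 features (0%) passed, 1462 (7.84%) had an unadjusted p under 0.05, and the median size of change was 0.22. After L-DOPA alone 204 features (1.09%) passed, 148 (0.794%) higher and 56 (0.3%) lower, with 2611 (14%) at an unadjusted p under 0.05 and a median size of 0.26. Set directly against each other, the L-DOPA plus zonisamide and the L-DOPA striatum differed in 77 features (0.413%), of which 17 (0.0911%) were higher and 60 (0.322%) lower with zonisamide. Against the saline-treated lesioned striatum, 0 features (0%) passed and 1263 (6.77%) had an unadjusted p under 0.05.

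**Figure D1:**
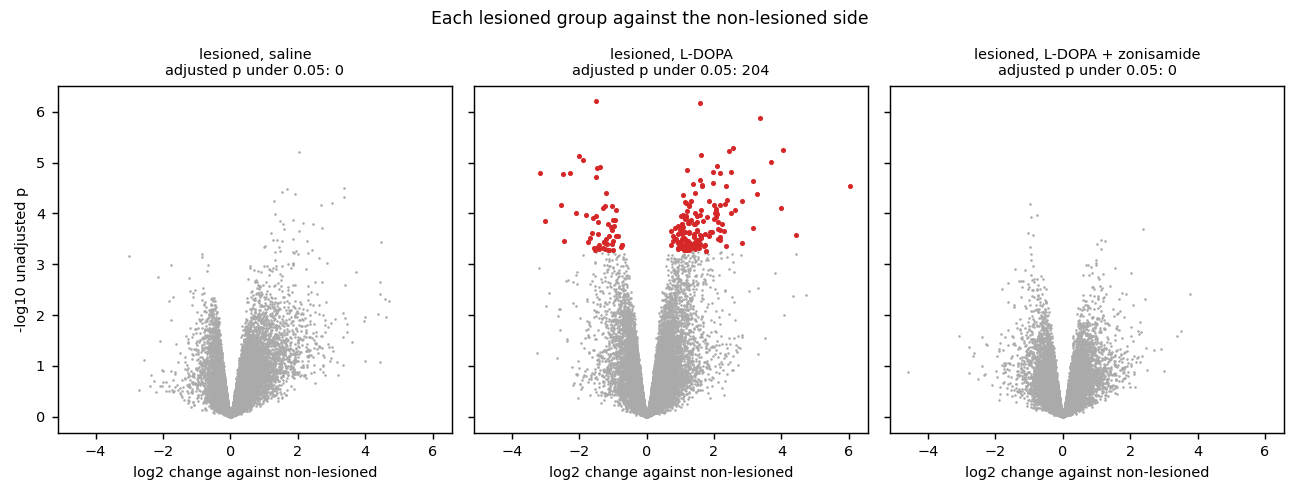
The log2 change against the non-lesioned striatum (x axis) and the −log10 unadjusted p (y axis) of 18651 features are plotted for the saline, L-DOPA, and L-DOPA plus zonisamide lesioned striatum, with features under an adjusted p of 0.05 in colour. Coloured points appear in the L-DOPA panel only, 204 of them, and the L-DOPA plus zonisamide panel has 793 features at an unadjusted p under 0.05 against 1462 and 2611 in the others.

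The peptide genes of the direct pathway lay at or above the non-lesioned level. Pdyn, which encodes prodynorphin, had levels of 3.00, 3.17 and 3.19 on the non-lesioned arrays and 3.26, 3.54 and 3.59 after L-DOPA plus zonisamide. The arrays did not overlap, but the change of 0.34 ± 0.22 (95% interval -0.15 to 0.84) did not pass, with an adjusted p of 0.999. The saline-treated lesioned arrays read 2.50, 2.78 and 2.03 and the L-DOPA arrays 3.91, 4.14 and 4.55, changes of -0.68 and 1.08 that did not pass either, with adjusted p of 0.583 and 0.0535. The combined treatment thus lay above every non-lesioned and below every L-DOPA array. Tac1, the substance P precursor, had levels of 4.93, 5.16 and 5.14 against 4.72, 5.48 and 5.31, which overlap, and a change of 0.09 ± 0.24 (interval -0.45 to 0.63). Its saline-treated lesioned levels of 4.55, 4.63 and 4.07 lay below all 6 of these. Drd1, the D1 receptor, read -0.77, -1.35 and -1.13 against -1.43, -1.07 and -1.73, a change of -0.33 ± 0.20 (interval -0.79 to 0.12). Isl1, a transcription factor of the direct pathway, was lower on all 3 treated arrays, at -1.83, -1.50 and -1.71 against -1.34, -1.06 and -1.35, and its change of -0.43 ± 0.15 did not pass at an adjusted p of 0.999. Its change was -0.52 in the saline-treated and -0.58 in the L-DOPA lesioned striatum. Over the 9 tested of 11 listed direct-pathway genes the median change was -0.09, against -0.50 with saline and -0.33 with L-DOPA, where the median of all features was 0.00, 0.02 and 0.03. On the 2 slides with arrays of both groups the median difference of this list was -0.22 and -0.38. In bulk tissue, fewer cells of a type and less RNA per cell cannot be told apart, here and for each list below.

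The group means of indirect-pathway genes lay close to the non-lesioned level. Penk, the enkephalin precursor, read 4.53, 4.30 and 4.17 on the non-lesioned arrays and 4.32, 4.50 and 4.22 with the combined treatment. The groups overlapped, with a change of 0.02 ± 0.21 (interval -0.46 to 0.49). The saline-treated lesioned arrays read 5.02, 4.82 and 5.19 and the L-DOPA arrays 4.51, 5.09 and 5.33, a change of 0.68 and 0.64. The direct differences of the combined treatment were -0.66 ± 0.21 from saline and -0.63 ± 0.21 from L-DOPA, with adjusted p of 0.722 and 0.265. Drd2, the D2 receptor, had a change of -0.05 ± 0.21 (interval -0.52 to 0.42). Adora2a, the adenosine receptor of these neurons, had one of -0.07 ± 0.22 (interval -0.56 to 0.42). Of the 6 tested of 8 listed members 3 were higher and 3 lower, the median was -0.02, and the smallest p belonged to Necab1, a calcium-binding protein gene, at 0.15 and Grik3, a kainate receptor gene, at 0.14. Of 16 tested genes shared by both kinds of spiny neuron 14 were lower, with a median of -0.13 and none at an unadjusted p under 0.05, where the share over all features was 4.25%. Their mean level was 3.53, 3.26 and 3.06 on the non-lesioned and 2.78, 3.34 and 3.33 on the treated arrays, so the first treated array lay below the rest and the other 2 within the non-lesioned range. On the 2 slides with arrays of both groups the median was -0.78 and 0.11. The first treated array also had the highest mean level of cortical and other glutamatergic genes, -0.70 against -3.55 and -2.94, and the part of this in the result was not tested. Cnr1, the cannabinoid receptor, had -0.34, and Pde10a, a striatal phosphodiesterase, -0.27.

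Th, tyrosine hydroxylase, the rate-limiting enzyme of dopamine synthesis, was higher in the lesioned striatum, the side whose dopamine input had been cut. Its levels were -2.80, -2.23 and -2.32 on the non-lesioned arrays and -1.15, -1.81 and -2.20 after the combined treatment, a change of 0.73 ± 0.31 (interval 0.05 to 1.41) with an adjusted p of 0.999. On the 2 slides with arrays of both groups the difference was 1.65 and 0.03. The change was 1.36 with saline and 1.14 with L-DOPA. The cell bodies of the dopamine neurons lie outside the striatum, so Th here does not measure the lesion, and Slc6a3, the dopamine transporter gene, was not among the tested features. Maoa, which encodes monoamine oxidase A, read -1.12, -0.60 and -1.04 against -0.48, -0.62 and -0.07, a change of 0.53 ± 0.20. These 2 were the members at an unadjusted p under 0.05 among 10 tested of 13 listed dopamine-handling genes (4.25% over all features), whose median was 0.10. Among 16 tested interneuron genes, Lhx6, a transcription factor of cortical-type interneurons, had -0.26, and the median was -0.08. The mean level of these genes was -0.83, -0.59 and -1.05 on the non-lesioned arrays. On the treated arrays it was -0.08, -1.14 and -1.10, highest on the first.

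**Figure D2:**
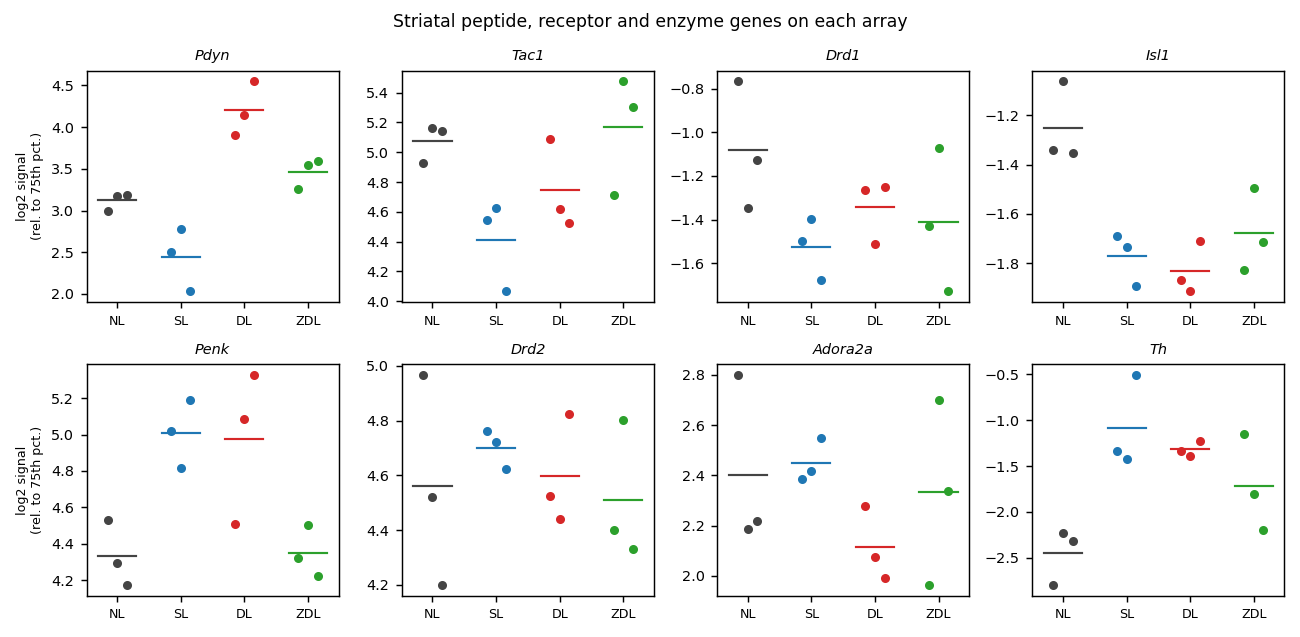
Log2 level (y axis, relative to the array's 75th percentile) of 8 striatal genes on each of 12 arrays, as points with the group mean as a line, for the non-lesioned saline (NL), lesioned saline (SL), lesioned L-DOPA (DL) and lesioned L-DOPA plus zonisamide (ZDL) groups. The ZDL points of Penk, Drd2, Adora2a and Tac1 overlap the NL points, and those of Pdyn lie above NL and below DL.

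Immediate-early genes formed the list with the most members at the low end of the comparison. These genes are transcribed within minutes of synaptic or receptor activity and encode transcription factors and signalling regulators. Of 34 listed genes 28 were tested, 18 were lower and 10 higher after L-DOPA plus zonisamide, and none passed. At an unadjusted p under 0.05 stood 13 members, 11 lower and 2 higher, where 4.25% of all features did. The arrays did not overlap in 9 members on the low side and 1 on the high side, against 4.05% and 3.12% of all features. The median change of the list was -0.16, against 0.11 with saline and -0.01 with L-DOPA. The mean level of the 28 members was -1.01, -1.02 and -1.13 on the non-lesioned arrays and -1.32, -1.35 and -1.33 on those of the combined treatment, so all 3 treated arrays lay below all 3 others. Klf4, Fosl2, Fos and Klf2 had the smallest p of the list, and the remaining members below were named after their values had been seen.

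The promoters of 3 of these members are shown because cAMP signalling, which the D1 receptor raises, is known to act on such genes through the CRE motif. The windows run from 250 bases before to 50 bases after the start of the gene, from RefSeq on GRCr8, and capitals mark the motif TGACGTCA or its short form, TGACG or CGTCA. They are Nr4a1 at chr7:134259888-134260187 on the plus strand, Btg2 at chr13:48087641-48087940 on the minus strand and Fosl2 at chr6:30039220-30039519 on the minus strand.
Nr4a1: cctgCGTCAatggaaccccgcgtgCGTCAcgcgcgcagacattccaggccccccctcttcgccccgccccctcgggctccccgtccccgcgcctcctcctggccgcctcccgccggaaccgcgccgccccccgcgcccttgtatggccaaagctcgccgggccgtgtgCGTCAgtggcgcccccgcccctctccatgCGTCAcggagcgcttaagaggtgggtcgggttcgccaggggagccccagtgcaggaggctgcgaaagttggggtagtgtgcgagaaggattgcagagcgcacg
Btg2: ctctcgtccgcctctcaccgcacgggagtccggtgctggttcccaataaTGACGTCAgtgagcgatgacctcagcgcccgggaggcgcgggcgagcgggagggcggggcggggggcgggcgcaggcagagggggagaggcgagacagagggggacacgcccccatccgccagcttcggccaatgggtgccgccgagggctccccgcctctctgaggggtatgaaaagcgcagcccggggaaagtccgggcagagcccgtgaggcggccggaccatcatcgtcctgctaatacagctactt
Fosl2: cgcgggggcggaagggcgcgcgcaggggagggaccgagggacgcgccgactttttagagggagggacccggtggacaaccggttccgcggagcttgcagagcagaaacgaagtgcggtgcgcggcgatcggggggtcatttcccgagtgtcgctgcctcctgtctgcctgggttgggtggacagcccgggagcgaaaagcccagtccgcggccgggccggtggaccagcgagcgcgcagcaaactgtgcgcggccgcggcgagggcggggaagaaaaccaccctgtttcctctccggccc
The Nr4a1 window holds 4 short forms, the Btg2 window 1 whole motif, which counts as 2 short forms, one on each strand, and the Fosl2 window none of these letters. Of the 28 tested members 19 had a window in the RefSeq table, and 11 of these (57.9%) held the short form on either strand. The short form was found in 7097 of all 33469 windows (21.2%). The whole motif was in 4 of the 19 (21.1%) and in 612 of all windows (1.83%). A match is a description of the letters and not a bound site, and the members that were higher are among those counted.

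Fos, the partner in the AP-1 transcription factor that is widely used as a marker of neuronal activity, had levels of -2.27, -2.72 and -2.53 on the non-lesioned arrays and -4.29, -3.45 and -4.01 after L-DOPA plus zonisamide. The groups did not overlap, and the mean was 2.67 times lower, a change of -1.41 ± 0.32 (interval -2.12 to -0.70) with an adjusted p of 0.982. On the 2 slides with arrays of both groups the difference was -2.02 and -1.30. The L-DOPA arrays read -4.17, -2.97 and -3.19, a change of -0.94 ± 0.32, and the change with saline was -0.34 ± 0.32. Fosl2, another AP-1 member, read -3.75, -4.36 and -4.17 against -5.29, -4.91 and -4.89, a change of -0.94 ± 0.19, and -4.64, -4.95 and -4.78 after L-DOPA. Its change was -0.56 with the mean of its probes and -0.38 with normexp correction and quantile normalization. Both genes thus lay below every non-lesioned array on all 6 arrays of the groups that had received L-DOPA.

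The orphan nuclear receptors Nr4a1 and Nr4a3 lay on the same side. Nr4a1, whose window held 4 short forms of the motif, read 2.33, 1.75 and 1.74 on the non-lesioned and 0.80, 1.33 and 0.17 on the treated arrays, a change of -1.18 ± 0.29 with an adjusted p of 0.982. Its change after L-DOPA was -0.36 ± 0.29, and the direct difference between the combined treatment and L-DOPA was -0.81 ± 0.29, adjusted p 0.281. Nr4a3 had a change of -0.90 ± 0.32. Arc, which encodes a synaptic protein that takes part in receptor trafficking, read 3.37, 3.24 and 2.95 against 1.72, 2.32 and 2.42, without overlap, a change of -1.03 ± 0.27 and an adjusted p of 0.982. On 2 of the 3 L-DOPA arrays Arc was at the non-lesioned level, with 2.34, 3.18 and 3.23, and the direct difference was -0.76 ± 0.27, adjusted p 0.278.

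Klf4, a Krüppel-like transcription factor, read -2.19, -2.38 and -2.41 against -3.29, -3.22 and -3.08, a change of -0.87 ± 0.16 (interval -1.23 to -0.52) with an adjusted p of 0.809. The L-DOPA arrays read -3.26, -3.35 and -3.20, and there Klf4 fell by 0.94, at an adjusted p of 0.0331. The 2 treated groups differed by 0.07 ± 0.16. Klf2, its relative, had a change of -0.77 ± 0.19 and fell by 0.98 with L-DOPA, at an adjusted p of 0.044. In both genes the 2 treated groups lay together below the non-lesioned and the saline-treated arrays.

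The other members on the low side were Egr2 at -1.63 ± 0.59 and Egr4 at -0.64 ± 0.26, zinc-finger transcription factors, Atf3, a stress-linked factor, at -0.86 ± 0.37, and the antiproliferative gene Btg2 at -0.39 ± 0.15. Egr2 rested on 2 arrays, since the treated levels were -5.06, -2.54 and -4.64 against -2.65, -2.22 and -2.49. On the high side, Ier3, a regulator of cell survival, read -3.04, -2.85 and -2.94 against -1.86, -2.41 and -2.21, a change of 0.79 ± 0.25, and Klf10, a factor induced by growth signals, had 1.05 ± 0.34. Both rose with L-DOPA alone, by 1.50 and 1.74 at adjusted p of 0.0313 and 0.0447.

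**Figure D3:**
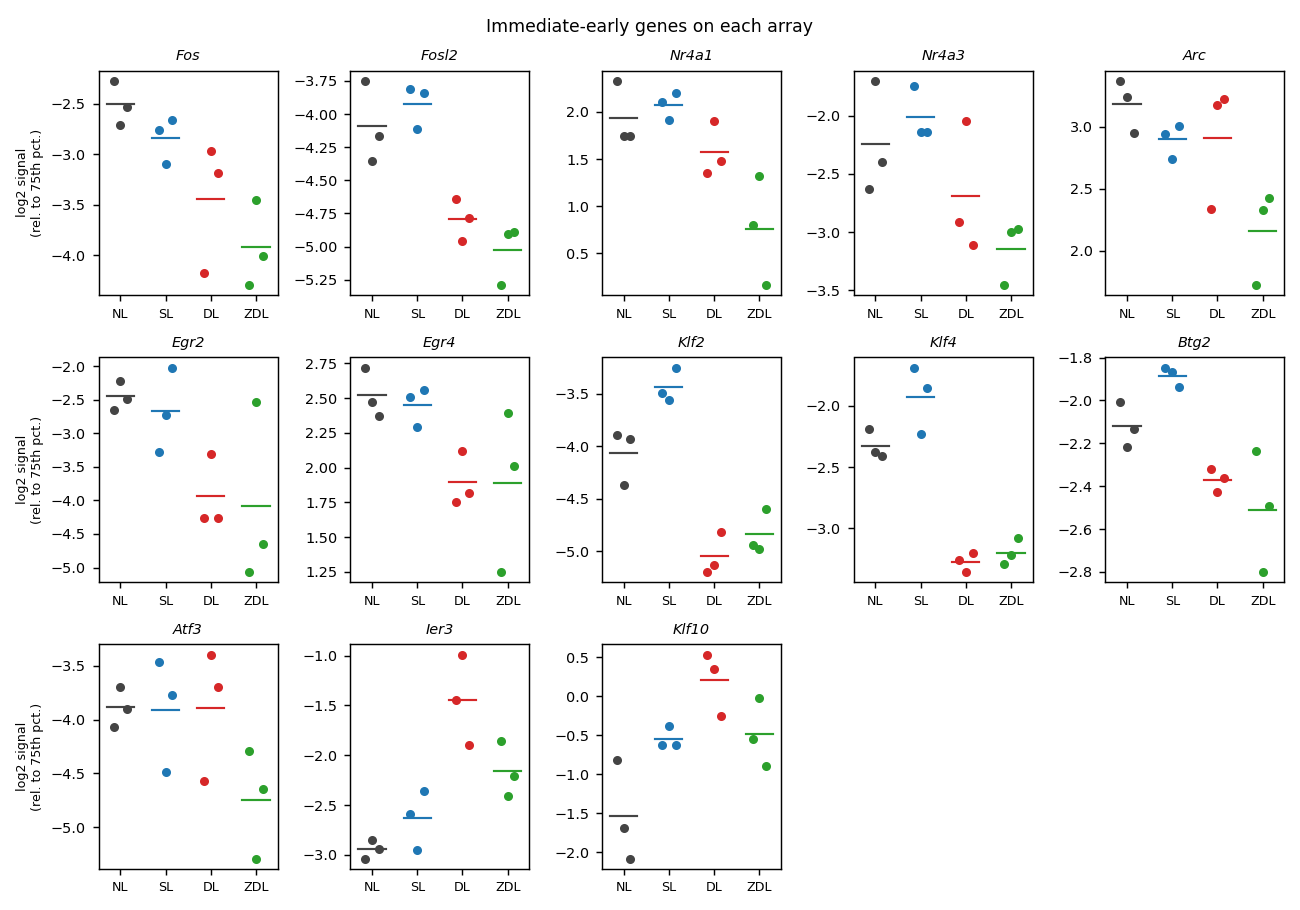
Log2 level (y axis, relative to the array's 75th percentile) of the 13 immediate-early genes at an unadjusted p under 0.05 on each of 12 arrays, with the group mean as a line and groups abbreviated as NL (non-lesioned saline), SL (lesioned saline), DL (lesioned L-DOPA) and ZDL (lesioned L-DOPA plus zonisamide). For Fos the ZDL points lie between −4.29 and −3.45 and the NL points between −2.72 and −2.27.

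Late activity-response genes, which follow the immediate-early wave and act on synapses and peptide processing, lay on the other side. Of 28 tested of 32 listed genes 17 were higher, the median was 0.18, and 5 had an unadjusted p under 0.05, all on the high side (background 2.07%). The median was 0.10 with saline and 0.52 with L-DOPA. Pcsk1, the prohormone convertase that cleaves neuropeptide precursors, read -2.81, -2.90 and -2.98 against -2.36, -2.65 and -2.02, a change of 0.56 ± 0.19. It rose with L-DOPA alone, by 1.19 at an adjusted p of 0.031. Rheb, the GTPase that activates mTORC1, read 1.94, 1.72 and 1.71 against 2.51, 1.97 and 2.33, a change of 0.48 ± 0.18. Per2, which is counted in the clock list too, had 0.76 ± 0.23.

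Circadian clock genes lay mostly on the high side, and none passed. Of 14 tested of 20 listed members 6 had an unadjusted p under 0.05, 5 higher and 1 lower. The shares over all features were 4.25%, 2.07% and 2.18%. The arrays did not overlap in 4, all higher, against 3.12% of all features on the high side. Bhlhe40, a repressor that clock and activity signals both induce, read -3.74, -3.45 and -3.81 against -2.47, -2.90 and -2.69, a change of 0.98 ± 0.21 with an adjusted p of 0.982. It rose with L-DOPA alone, by 1.13 at an adjusted p of 0.0434. Dbp, an output factor of the clock, read 5.27, 4.79 and 5.01 against 5.41, 5.79 and 5.67, a change of 0.60 ± 0.18, and the L-DOPA arrays stood at 5.24, 4.78 and 5.05. Nr1d1, the repressor REV-ERB alpha, had 0.44 ± 0.17 and no array of the other groups above -1.68, where the treated arrays read -1.42, -1.40 and -1.41. Time of day at tissue collection is not given in the sources used here.

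Glucocorticoid-responsive genes had 5 of 16 tested members at an unadjusted p under 0.05, 4 lower and 1 higher, with a median of -0.11. Over all features the shares were 4.25%, 2.18% and 2.07%. Sgk1, a serum- and glucocorticoid-regulated kinase, read 0.33, 0.54 and 0.56 against -0.78, -0.35 and -0.59, without overlap, a change of -1.05 ± 0.26 (interval -1.63 to -0.46) with an adjusted p of 0.982. It fell by 1.43 with L-DOPA alone, at an adjusted p of 0.0404. Zbtb16, a glucocorticoid-induced zinc-finger factor, was higher, with 0.91 ± 0.24, or 0.22 with normexp correction and quantile normalization. Pdk4, a kinase that restrains pyruvate oxidation, was not well above background on any of the 3 treated arrays and was so on all 3 non-lesioned ones. It was at least 1.37-fold lower, a bound taken against the lowest signal that stood well above background on each array. Pdk4 met the background filter through the non-lesioned arrays alone, so its place among the 4 lower members is not support for a change. Its adjusted p in the fit was 0.982, and with normexp background correction its fitted change turned to 0.16.

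The 28 named genes with the smallest p were 14 higher and 14 lower, and their arrays did not overlap, with changes of 0.57 to 2.03 log2 units in size, at adjusted p of 0.735 to 0.982. They were chosen by this comparison's own p, so their separation is a description. Tmem243, a transmembrane protein gene, had the smallest p, with levels of -1.93, -1.89 and -2.23 on the non-lesioned and -2.99, -2.88 and -3.09 on the treated arrays, a change of -0.97 ± 0.15. The saline and L-DOPA lesioned arrays lay with the non-lesioned ones, at -2.22, -2.01 and -2.31 and -1.92, -1.67 and -1.84. The direct difference from L-DOPA passed, at -1.18 ± 0.15 with an adjusted p of 0.0207.

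Rilp, an effector of the late endosomal GTPase Rab7, had a change of -0.95 ± 0.20 and Plekhf1, an endosomal phosphoinositide-binding protein gene, one of -0.98 ± 0.19, while Ubap1, a subunit of the ESCRT-I sorting complex, had 0.98 ± 0.21. With the mean of its probes Ubap1 had 0.44, at an unadjusted p of 0.0568. Rilp read -2.82, -2.90 and -3.24 on the treated arrays, and no array of the other 3 groups was below -2.54. Slc25a25, a mitochondrial ATP-Mg carrier, was at -0.63 ± 0.15 and fell by 0.76 with L-DOPA, at an adjusted p of 0.0463. Ddit4, an inhibitor of mTORC1, read 1.74, 2.12 and 2.02 against 0.77, 0.98 and 1.48, a change of -0.88 ± 0.20, and Apaf1, the scaffold of the apoptosome, had -0.57 ± 0.14. With the mean of its probes Apaf1 had -0.14, at an unadjusted p of 0.354.

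Apold1, an endothelial gene that responds rapidly to activity and injury, read -3.20, -3.17 and -3.04 against -4.51, -4.83 and -3.80, a change of -1.25 ± 0.31. The L-DOPA arrays read -3.49, -2.43 and -2.69, and the direct difference of -1.51 ± 0.31 had an adjusted p of 0.0714. Tnni2, a troponin I gene of fast muscle, had -1.03 ± 0.19 and Kcng4, a modifier subunit of voltage-gated potassium channels, -1.13 ± 0.26. Klf4, Fosl2, Fos and Klf2, described above, are also among the 14 lower genes.

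Of the 14 higher genes, Serping1, the C1 inhibitor of complement, read -1.94, -2.35 and -2.45 against -0.56, -1.56 and -1.05, a change of 1.19 ± 0.28. It was high in all 3 lesioned groups, with changes of 1.91 after saline and 1.23 after L-DOPA. Alkbh4, an AlkB-family dioxygenase gene, had 1.25 ± 0.24, or 0.69 with the mean of its probes, and Tspan13, a tetraspanin gene, 1.09 ± 0.26. Foxq1, a forkhead transcription factor, read -5.85, -5.69 and -6.32 against -4.50, -5.21 and -4.73, a change of 1.14 ± 0.22, and rose with L-DOPA by 1.58 at an adjusted p of 0.0185. Bpifb1, a secreted protein gene of the BPI fold family, was well above background on 2 of 3 non-lesioned arrays and had 1.12 ± 0.22. It rose with L-DOPA, by 1.33 at an adjusted p of 0.0329. With normexp background correction and quantile normalization its change with the combined treatment was 0.12.

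Plaur, the receptor of the urokinase plasminogen activator, had the highest fitted change of the 28. It was not well above background on any of the 3 non-lesioned arrays and was so on all 3 treated ones, where it was at least 1.59-fold higher, with an adjusted p of 0.982 in the fit. Plaur met the background filter through the treated arrays alone, so its separation from the non-lesioned arrays is not support for a change. With no filter on dim probes another Plaur probe, of higher mean signal, stood for the gene. The fitted change of that probe was 0.59 at an unadjusted p of 0.343, in place of 2.03. Kif26a, an unconventional kinesin gene, had 0.78 ± 0.18 and Mindy1, a deubiquitinase gene, 0.59 ± 0.14, and both rose with L-DOPA, by 0.92 and 0.71 at adjusted p of 0.0472 and 0.0447. Yod1, another deubiquitinase gene, had 0.75, Lactb2, a mitochondrial ribonuclease gene, 0.70, Eya2, a transcriptional coactivator with phosphatase activity, 0.83, and Tekt3, a gene of a ciliary filament protein, 1.05. With normexp correction and quantile normalization the change of 14 of the 28 genes was smaller by more than 1.5 times, and that of Mindy1 was 0.071.

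The genes with the smallest p for the lesion under saline were set beside the combined treatment. These 10 lay 1.26 to 2.03 log2 units above the non-lesioned side in the saline-treated striatum, and none passed there. After L-DOPA plus zonisamide all 10 were above the non-lesioned mean and all 10 below the saline-treated mean, with changes against the non-lesioned side of 0.17 to 1.25. The choice by a high saline value favours a lower value in any other group. In the direct test of the combined treatment against saline 7 of the 10 had an unadjusted p under 0.05, where 6.77% of all features did. None passed, as no feature did in that test, with adjusted p from 0.245.

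Fst, the gene of the activin-binding protein follistatin, read -0.32, -0.36 and -0.26 on the non-lesioned, 1.57, 1.08 and 1.47 on the saline-treated and -0.33, -0.48 and 0.38 on the L-DOPA plus zonisamide arrays. The combined treatment overlapped the non-lesioned side and not the saline group, a difference from saline of -1.52 ± 0.24 with an adjusted p of 0.245. The L-DOPA arrays read 0.49, 0.54 and 0.99. Upb1, an enzyme of pyrimidine breakdown, read -2.59, -3.00 and -2.79, -0.81, -1.85 and -0.96 and -2.52, -2.76 and -2.59 in the same order of groups, a difference from saline of -1.41 ± 0.28. Igsf7 l1 had changes of 2.03 after saline and 0.53 after the combined treatment, with a difference of -1.50 ± 0.24 at an adjusted p of 0.245. Alkbh4 stayed at the saline level, at 1.25 against 1.26, a difference of -0.01 ± 0.24. The changes of Grip2, a glutamate receptor scaffold gene, were 0.92 and 1.47. For Spmap2, Slc10a5 and Tmem171 they were 0.48, 0.51 and 0.70 with the combined treatment against 1.30, 1.57 and 1.39 after saline. Normexp correction and quantile normalization lowered the combined-treatment changes of Grip2, Spmap2, Slc10a5 and Tmem171 to 0.14, 0.18, 0.041 and 0.35.

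The 10 genes with the smallest p for L-DOPA alone, chosen after their values had been seen, passed against the non-lesioned side, 8 higher and 2 lower. After L-DOPA plus zonisamide none passed, where no feature of the whole comparison did. In the direct test between the 2 treatments 7 of the 10 differed, where 0.413% of all features did. This choice, too, favours a value nearer to the non-lesioned level in the other group. Svop, a synaptic vesicle transporter gene, read 0.53, 0.23 and 0.36 on the non-lesioned, -0.93, -1.29 and -1.04 on the L-DOPA and 0.44, 0.43 and 0.43 on the combined-treatment arrays. It fell by 1.46 with L-DOPA and was 2.87 times higher with zonisamide added, a difference of 1.52 ± 0.19 with an adjusted p of 0.0207. Its change against the non-lesioned side was 0.06 ± 0.19 (interval -0.35 to 0.48).

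Adcy10, the soluble adenylyl cyclase, read -5.57, -5.56 and -5.20, -3.64, -4.19 and -3.64 and -5.52, -5.43 and -5.14 in the same order. The combined treatment differed from L-DOPA by -1.54 ± 0.19 at an adjusted p of 0.0207 and from the non-lesioned side by 0.08 ± 0.19 (interval -0.35 to 0.52). C1galt1, an enzyme of O-glycosylation, read -1.87, -2.42 and -2.13, -1.07, -0.89 and -0.89 and -2.14, -2.25 and -2.10, a difference from L-DOPA of -1.21 ± 0.15 at an adjusted p of 0.0207. Nat8f1, an N-acetyltransferase family gene, fell by 1.38 with L-DOPA and differed by 1.25 ± 0.18 with zonisamide added, adjusted p 0.0275. In these 4 genes the combined treatment overlapped the non-lesioned arrays and lay apart from the L-DOPA arrays.

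Nptx1, the neuronal pentraxin that gathers AMPA receptors at synapses, read -2.26, -1.92 and -2.36, 0.66, 0.26 and -0.16 and -1.11, -2.02 and -1.38. It lay between the other groups, with a change of 0.67 ± 0.29 against the non-lesioned side and of -1.76 ± 0.29 against L-DOPA, the latter at an adjusted p of 0.041. Nptx1 is in the late activity list and in the cortical and other glutamatergic list, and of the 3 treated arrays it was highest on the first, where the mean level of the cortical genes was highest too. Sbsn, a secreted protein gene, differed from L-DOPA by -2.25 ± 0.30, at an adjusted p of 0.0237. Plaur, Tnnt1, a slow-muscle troponin T gene, and Plekha4, a phosphoinositide-binding protein gene, did not pass that test. Tnnt1 read 0.74, 1.53 and 1.36 on the non-lesioned and 2.69, 1.86 and 2.42 on the combined-treatment arrays, a change of 1.11 ± 0.33, and Plekha4 had 0.88 ± 0.28.

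**Figure D4:**
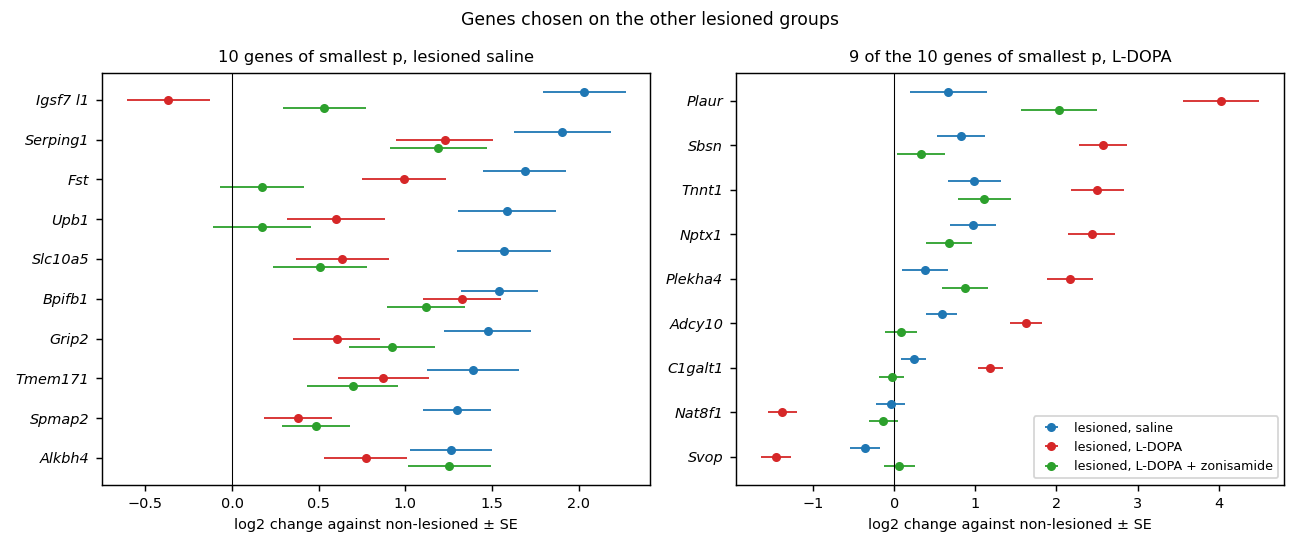
Log2 change against the non-lesioned striatum ± SE (x axis) of the 10 genes with the smallest p after saline (left) and of 9 of the 10 after L-DOPA (right), in the saline, L-DOPA, and L-DOPA plus zonisamide lesioned striatum (3 arrays each). The L-DOPA plus zonisamide points of Svop, Nat8f1, C1galt1 and Adcy10 lie at 0.06, −0.14, −0.03 and 0.08, near the zero line.

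With zonisamide added, the medians of the interferon and MHC lists lay below the non-lesioned level and those of the chemokine and complement lists above it. The interferon-response list had a median of -0.22 over 19 tested of 25 listed genes, against -0.14 with saline and 0.90 after L-DOPA. On the 2 slides with arrays of both groups its median was 0.82 and −0.02. The list for MHC and antigen presentation had -0.14, against 0.04 with saline and 0.55 after L-DOPA. Of its 15 tested members 13 were lower and none had an unadjusted p under 0.05. On those 2 slides the median of the MHC list was -0.12 and 0.19, and its mean levels overlapped between the treated and the non-lesioned arrays. Of its members 4 passed the direct test between the 2 treatments, among them Tap2, a peptide transporter subunit, where 0.413% of all features did. Tap2 read -1.79, -1.86 and -1.28, -0.68, -0.40 and -0.85 and -1.86, -2.06 and -2.17 on the non-lesioned, L-DOPA and combined-treatment arrays, a difference of -1.39 ± 0.19 at an adjusted p of 0.0271. RT1-Bb, a class II gene, had -0.87 ± 0.70 against the non-lesioned side.

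Cxcl10, an interferon-induced chemokine, was above the non-lesioned level. It read -5.98, -5.46 and -4.77 on the non-lesioned and -3.67, -4.10 and -4.65 on the treated arrays, a change of 1.27 ± 0.43 with an adjusted p of 0.999, and 1.74 after L-DOPA. Dhx58, an RNA sensor gene, had 0.57 ± 0.25. Among 13 tested chemokines and interleukins 11 were higher, with a median of 0.25 against 0.14 with saline and 0.95 after L-DOPA. Il1a, the interleukin-1 alpha gene, read -4.66, -4.46 and -5.26 against -3.89, -3.57 and -3.35, a change of 1.19 ± 0.33. In the complement list 12 of 18 tested members were higher, with a median of 0.14 against 0.23 with saline and 0.38 after L-DOPA. C2, a component of the classical pathway, had 0.69 ± 0.26. None of these genes passed.

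The medians of the microglia and astrocyte lists lay near 0, and that of the oligodendrocyte list lay below them. The 21 tested microglia and macrophage genes had a median of -0.09, with C1qc at -0.52 and Tyrobp at -0.47, a complement and a microglial adaptor gene. The astrocyte list had a median of 0.07 over 21 tested genes, and 1 member was at an unadjusted p under 0.05 in each direction, Cxcl10 and Slc39a12. Over all features the shares were 2.07% higher and 2.18% lower. Slc39a12, a zinc importer gene of astrocytes, read -0.85, -1.59 and -2.16 on the non-lesioned and -2.88, -3.33 and -3.31 on the treated arrays, a change of -1.64 ± 0.41 (interval -2.54 to -0.74). The L-DOPA arrays read -0.54, 0.07 and -0.25, the highest of the 4 groups, and the combined treatment was 7.65 times lower than these, a difference of -2.93 ± 0.41 at an adjusted p of 0.0271. Of 19 tested oligodendrocyte genes 12 were lower, with a median of -0.19, and Aspa, the aspartoacylase gene, had -0.46 and Olig2, the lineage factor, -0.39.

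The medians of vessel and blood genes lay below those of the other lesioned groups. The 21 tested endothelial, pericyte and smooth muscle genes had a median of 0.01, against 0.31 with saline and 0.52 with L-DOPA. Cldn5, the tight-junction claudin of brain endothelium, read 0.94, 0.98 and 0.60, 1.34, 1.17 and 1.65 and 0.60, 0.40 and 0.41 on the non-lesioned, L-DOPA and combined-treatment arrays, and the direct difference of -0.92 ± 0.19 had an adjusted p of 0.0725. Apln, an endothelial peptide gene, had -0.42. The 7 tested blood and neutrophil genes had a median of -0.56, with the alpha globin gene Hba-a1 at 5.79, 5.76 and 5.58 against 4.91, 5.32 and 5.06 and the beta globin gene Hbb at -0.77 ± 0.37. Globin genes share much of their sequence, so their probes can read each other's RNA. The blood list had mean levels of -0.41, -0.45 and -0.73 on the non-lesioned and -1.10, -1.07 and -0.75 on the treated arrays, so every treated array was below every non-lesioned one. The part of blood content in the immune and vessel values was not tested.

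The choroid plexus list followed single arrays. Its median was -0.54, and Enpp2 and Slco1a5, both secretory or transport genes of the plexus, read 1.97, 0.72 and 4.18 and -6.71, -6.13 and -1.33 on the non-lesioned arrays and 1.37, 1.11 and 2.54 and -6.50, -6.47 and -4.32 on the treated ones. Without the third non-lesioned array these changes turned positive, to 0.33 and 0.66. The cortical and other glutamatergic list had a median of 0.67 over 7 tested of 12 listed genes, which is the change of Nptx1, its member with the smallest p, and its mean level was -0.70, -3.55 and -2.94 on the treated arrays, highest on the first. Neurod2, a cortical transcription factor, read -3.26, -5.53 and -4.66 there against -5.70, -5.60 and -6.73. Slc17a7, the defining vesicular transporter of cortical neurons, was not among the tested features.

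No gene of the 3 lists that hold known targets of zonisamide passed, where no feature of the whole comparison did. None of the 11 tested of 13 listed sodium channel genes had an unadjusted p under 0.05, where 4.25% of all features did, and the median was -0.10. Scn8a, the Nav1.6 channel, had -0.32 ± 0.17 and Scn2a, the Nav1.2 channel, 0.83 ± 0.61, the latter with non-lesioned levels of 2.07, 0.57 and -0.82 that spanned the treated ones. None of the 14 tested of 17 listed calcium channel genes reached that p either, with a median of 0.13. This list is of calcium channels in general. Its members not among the tested features were Cacna1a, Cacna1d and Cacna1h, of which only Cacna1h is a T-type channel gene. Cacnb3, a beta subunit, had -0.38 ± 0.18 and Cacna2d1, the subunit that binds gabapentin, 0.38 ± 0.18, and neither is a T-type channel gene. Of 12 tested carbonic anhydrases 1 did, Car2, the abundant cytosolic enzyme of oligodendrocytes, which read 2.13, 1.67 and 2.06 against 1.56, 1.33 and 1.52, a change of -0.48 ± 0.17. The mitochondrial Car5b had -0.48 ± 0.24.

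Among synaptic and channel genes, Tspoap1, a presynaptic scaffold of the calcium channel, read 2.65, 2.55 and 2.31 on the non-lesioned and 3.25, 3.01 and 3.45 on the treated arrays, a change of 0.73 ± 0.22. The L-DOPA arrays read 2.26, 2.03 and 1.44, and the difference of 1.32 ± 0.22 between the treatments passed at an adjusted p of 0.041. The 25 tested synaptic vesicle genes had a median of 0.06, and Cplx2, a complexin gene, had -0.36. The 27 tested glutamate receptor and scaffold genes had a median of 0.06, with Grik2, a kainate receptor gene, at -0.55, -1.10 and -1.45 against -1.75, -1.95 and -1.55, a change of -0.71 ± 0.22. Of 22 tested potassium channel genes the median was -0.08. Kcnip2, which encodes the auxiliary subunit KChIP2 of A-type channels, had -0.66 ± 0.17 with no overlap and an adjusted p of 0.982, and Kcnj2, an inward rectifier, -0.93 ± 0.34. With normexp correction and quantile normalization Kcnip2 had -0.52 and Kcnj2 -0.13.

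None of 23 tested neuropeptide and receptor genes and none of 25 tested activin, growth and neurotrophic factor genes passed. The medians were 0.07 and -0.04, against 0.12 and 0.16 after L-DOPA. The mean level of the neuropeptide list was -0.85, -0.59 and -0.89 on the non-lesioned and -0.0039, -0.97 and -0.89 on the treated arrays. Its first treated array thus lay above all the others, and the median is not a common value of the 3. Tac3, the neurokinin B precursor, read 1.55, 1.70 and 1.72 on the non-lesioned and 2.56, 2.11 and 2.33 on the combined-treatment arrays, without overlap. Its change was 0.67 ± 0.33 with the combined treatment, and it rose by 2.06 with L-DOPA at an adjusted p of 0.0305. Inhba, which encodes the activin A subunit, had 0.70 ± 0.42 against a rise of 2.64 with L-DOPA (adjusted p 0.0305), and the direct difference of -1.94 ± 0.42 had an adjusted p of 0.087. Fstl3, a follistatin relative, had 0.55. The 22 tested matrix, collagen and protease genes had a median of -0.21, against 0.41 after L-DOPA, and Mmp14, a membrane-bound protease gene, read -1.01, -0.99 and 0.40 against -1.79, -2.18 and -1.26, a change of -1.21 ± 0.42.

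**Figure D5:**
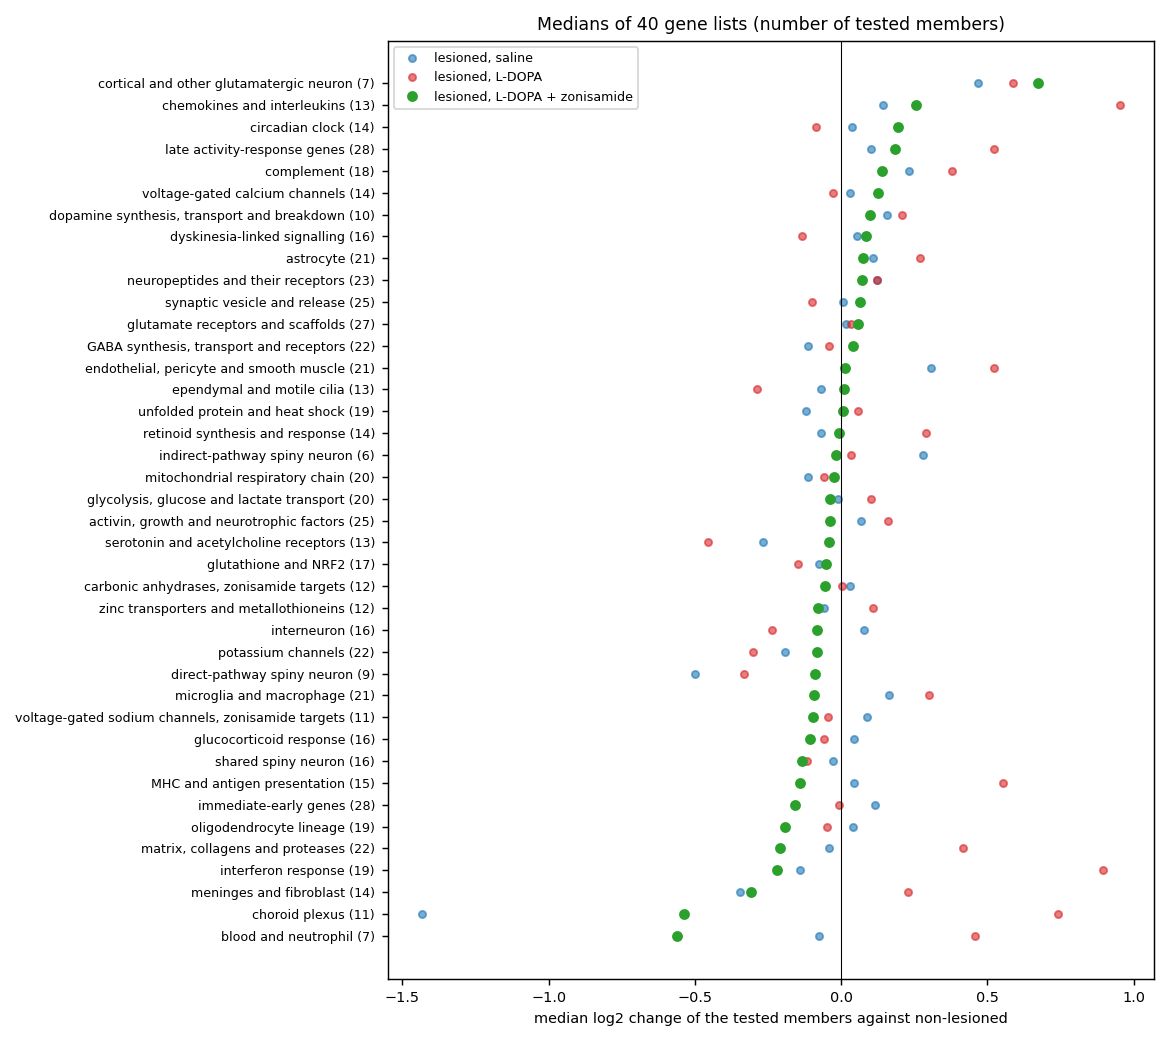
Median log2 change against the non-lesioned striatum (x axis) of the tested members of 40 gene lists (y axis, number tested in brackets) in the saline, L-DOPA, and L-DOPA plus zonisamide lesioned striatum. The L-DOPA plus zonisamide medians run from −0.56 for blood genes to 0.67 for cortical genes, and those of the interferon, MHC and vessel lists lie at −0.22, −0.14 and 0.01 where the L-DOPA medians are 0.90, 0.55 and 0.52.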

How the data were processed

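Gene expression in rat striatum was measured on 12 Agilent arrays of one colour, 3 in each of 4 groups. The authors deposited scanner files, made per the file headers by version 10.7.3.1 of Agilent's extraction software, whose processed signal is an intensity with the background subtracted. Their combined table held the same intensities on every spot within a relative tolerance of 1e-06. Outlier spots were left out, spots of a probe averaged, and log2 signals scaled by their 75th percentile on the array. Tested probes had a share of at least 0.5 of their spots well above background on every array of either group, and the probe with the highest mean signal stood for a gene. Symbols came from RefSeq accessions (GRCr8) for 17328 of 30367 probes, so 10811 features had a symbol and 7840 none. All 12 arrays were fitted together in limma 3.58.1 (R 4.3.3, 8 residual degrees of freedom), two-sided, with Benjamini-Hochberg adjustment over 18651 features and a threshold of 0.05. For 114 features an array was missing as an outlier. An exact permutation test of 3 against 3 cannot go below 0.1. The number of arrays limits the precision, and the labels name 3 animals per group. Replicate numbers appear in both groups, but the labels do not say what the number marks. The deviations of same-numbered arrays correlated at 0.19, 0.10 and 0.15 across features, and an alternative with a replicate block treated them as pairs. The arrays lay on 5 slides, of which 2 held both groups, each with 1 array of either group. Of the same-numbered arrays only those of replicate 1 shared a slide. Genes were named by a rule: the 28 with a symbol and the smallest p, since fewer than 10 passed, 7 fixed striatal genes, the members of each of 40 lists with the smallest p, and the 10 of smallest p after saline. The lists and members were chosen with earlier results of these data known. For the normexp alternative the median spot intensity, also deposited by the authors, was used in place of the planned mean intensity. A few genes that these rules pick are counted but not reported by name here.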

Additional observations from a re-analysis of the deposited data

How the results depend on the processing

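Under 16 of 19 alternative settings 0 features passed. With slide as a fixed block 4 passed, without both arrays of replicate 3 there were 6, and leaving out one array at a time gave 0 to 10, the 10 without the third non-lesioned array. All were higher after L-DOPA plus zonisamide than on the non-lesioned arrays. In each of those 10, the first 2 non-lesioned arrays lay below all the other 10 arrays, those of the saline and L-DOPA groups among them. The cause was not tested. Features at an unadjusted p under 0.05 numbered 793 as reported, 475 with only the 6 arrays and 1415 with the slide block. The replicate block gave 0 passing features and 805 at an unadjusted p under 0.05, and changed no call. The immediate-early list had 9 to 13 members at an unadjusted p under 0.05 under the 19 settings, and the late activity list 1 to 7, with 1 under normexp and quantile normalization. None of the 28 genes with the smallest p turned its sign, but 17 of them had a change smaller by more than 1.5 times under at least 1 setting other than leaving out 1 array. Normexp with quantile normalization made 14 smaller, with Bpifb1 at 0.12, Mindy1 at 0.071 and Tekt3 at 0.20. The mean of a gene's probes made 4 smaller, with Alkbh4 at 0.69, Apaf1 at -0.14, Fosl2 at -0.56 and Ubap1 at 0.44. With no filter on dim probes 1 was smaller, Plaur at 0.59, where another of its probes stood for the gene. Of the other named genes, Penk turned to -0.00696 with quantile normalization, -0.089 with the slide block and -0.000428 without both replicate 3 arrays. Nat8f1 turned to 0.068 with normexp and 0.015 with the slide block, Pdk4 to 0.16 with normexp, Tac1 to -0.035 with the mean of a gene's probes, and Grik3 to -0.077 with array weights, -0.00336 with the slide block and -0.44 without both replicate 3 arrays. With the slide block Enpp2 was 0.25, Necab1 -0.094 and Slco1a5 0.56, and without both replicate 3 arrays Fst was -0.06 and Necab1 -0.11. Leave-one-out ranges that crossed 0 were Adcy10 -0.027 to 0.20, Adora2a -0.25 to 0.13, C1galt1 -0.17 to 0.10, Drd2 -0.23 to 0.15, Enpp2 -1.40 to 0.33, Fst -0.090 to 0.34, Grik3 -0.19 to 0.32, Necab1 -0.14 to 0.32, Penk -0.064 to 0.12, Slco1a5 -2.03 to 0.66, Svop -0.00812 to 0.14, Tac1 -0.067 to 0.31 and Ttr -0.53 to 1.87. The median of the choroid plexus list ran from -1.62 to 0.97. The number of arrays limits the precision, with a median SE of 0.26.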

Other observations

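Stress and metabolism lists had members on both sides of the non-lesioned level, and none passed. The 19 tested unfolded-protein and heat-shock genes had a median change of 0.01 over a range of -0.73 to 0.53, the 20 respiratory chain genes -0.02 over -0.81 to 0.44, the 20 genes of glycolysis and glucose or lactate transport -0.04 over -1.79 to 1.13, and the 17 glutathione and NRF2 genes -0.05 over -0.54 to 0.22. Medians near 0 over such ranges do not show that the lists were alike in both groups. The 22 GABA genes had 0.04 and the 13 serotonin and acetylcholine receptor genes -0.04, where the latter had -0.46 after L-DOPA. The 16 genes of dyskinesia-linked signalling had 0.09, with 4 members whose arrays did not overlap on the high side and 2 on the low side (background 3.12% and 4.05%).

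A few genes split the non-lesioned arrays among themselves, and they were singled out after their values had been seen. Arl6ip5, which encodes a membrane protein of the endoplasmic reticulum that acts on glutamate transport, had levels of -3.05 and -2.92 on the first 2 non-lesioned arrays and between -1.15 and -0.90 on the other 10 arrays, the third non-lesioned array among them. Tmem65, an inner mitochondrial membrane protein gene, had levels of -4.55 and -4.95 on the first 2 non-lesioned arrays and between -2.65 and -1.98 on the other 10 arrays. Tmem168, a transmembrane protein gene, had levels of -1.22 and -1.25 on the first 2 non-lesioned arrays and between -0.40 and 0.07 on the other 10 arrays. These genes passed only without the third non-lesioned array or, for Arl6ip5 and Tmem65, with the slide as a fixed block or without both replicate 3 arrays too. With that array left out the changes were 1.99, 2.46 and 1.08 at adjusted p of 0.000689, 0.00193 and 0.0303. The remaining 7 features that passed there had no symbol, and in each of them, too, the first 2 non-lesioned arrays lay below the other 10 arrays. Of 18651 features, 20 had the first 2 non-lesioned arrays below the other 10 by over 1 log2 unit, and 0 had them above by as much.

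Erp27, a chaperone gene of the endoplasmic reticulum, was well above background on all 3 L-DOPA plus zonisamide arrays, at -6.51, -6.64 and -6.31, and on none of the 3 non-lesioned or the 3 L-DOPA arrays. One saline-treated lesioned array, the third, read -5.75, and the other 2 were not well above background. The treated level was at least 1.23-fold higher than the non-lesioned one, with an adjusted p of 0.999 over all 12 arrays. Erp27 met the background filter through the treated arrays alone, so its passing with slide as a fixed block is not support for a change. With normexp correction and quantile normalization its fitted change was 0.34 in place of 2.45.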
